A study of Rattus norvegicus with 7 samples.

Results

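The miRNAs described are miR-375, miR-7a and miR-7b in rat pancreatic islets, 3 of the 677 rat miRNAs on the array. They were taken by name, as rno-miR-375, rno-miR-7a and rno-miR-7b, and the star forms, which are the opposite strands of the same hairpins, were left out of the set. Islet RNA was profiled from 4 male Wistar rats aged 12 months (replicates 2, 4, 10 and 16) and 3 male Wistar rats aged 3 months (replicates 9, 11 and 13), with 1 single-colour Agilent miRNA array per rat. The islets of both ages had been released by collagenase digestion, the labels list no treatment or genetic change, and the RNA carried the dye Cy3. The comparison asks how the islet miRNA profile at 12 months differs from that of young adult animals. In the same study, miR-7 served as one of the references to which qPCR measurements of other miRNAs were scaled, so its level at both ages bears on those measurements as well, which were not analysed here.

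A miRNA is cut from a hairpin transcript as a duplex, and one strand is loaded into an Argonaute protein, which it guides to mRNAs that pair with its seed. miR-375 is abundant in pancreatic endocrine cells, where it restrains insulin exocytosis through targets such as Mtpn and is needed for a normal beta cell mass. The miR-7 family is likewise enriched in endocrine and neuronal cells and dampens mTOR signalling and exocytosis in beta cells.

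The mature sequences below show how the 3 miRNAs relate to each other. They come from RefSeq on the GRCr8 assembly, run 5′ to 3′, and have the seed (bases 2 to 8) in capitals.
rno-miR-7a-5p: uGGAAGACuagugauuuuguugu
rno-miR-7b: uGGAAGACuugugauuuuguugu
rno-miR-375-3p: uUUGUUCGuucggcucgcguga
The array uses older names without an arm, and rno-miR-7a and rno-miR-375 were matched to the arms rno-miR-7a-5p and rno-miR-375-3p. miR-7a and miR-7b share the seed GGAAGAC, which no other of the 693 rat mature miRNAs in the table has, and differ at 1 of 23 positions (A10U, with miR-7a's base first, counted from the 5′ end). miR-375 has a seed of its own, UUGUUCG. Both miR-7 sequences are AU-rich, with 34.8% G and C, against 54.5% for miR-375.

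miR-7a is made from 2 loci, at chr17:6278710-6278732 on the plus strand, within the gene Hnrnpk, and at chr1:142215818-142215840 on the plus strand, within a long non-coding RNA gene. miR-7b lies at chr9:1167464-1167486 on the plus strand, over the annotated pseudogene Rpl35l3, and miR-375 at chr9:83906591-83906612 on the minus strand, within the annotated bounds of Cryba2. Since both loci give one mature sequence, the array signal of miR-7a is the sum of their products. The opposite strands differ between the loci, and they are shown because they can tell the hairpins apart.
rno-miR-7a-1-3p: aCAACAAAucacagucugccau
rno-miR-7a-2-3p: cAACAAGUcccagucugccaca

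The total gene signal was used, which is the background-subtracted fluorescence that Agilent's Feature Extraction software sums over the probes of a miRNA. Each miRNA had 20 spots, shared among its probes. It depends on how well each probe binds and labels, so an order of signals is not an order of molecule numbers. All 3 miRNAs were called detected on all 7 arrays, as were 238 of the 677 rat miRNAs, and no rat spot was saturated. The software detected between 246 and 296 miRNAs per array. The summed signal of all rat miRNAs was 273161 to 401622 units at 12 months and 169890 to 241595 at 3 months, so every array of the older rats was brighter than every array of the younger rats.

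miR-7a was the brightest miRNA on 6 of 7 arrays and came second to miR-29b on that of 12-month-old replicate 10. Its signal at 12 months was 46071, 38605, 22838 and 43195 units in replicates 2, 4, 10 and 16, and at 3 months it was 18670, 24524 and 17281 units in replicates 9, 11 and 13. The ages overlapped, because replicate 10 lay below the brightest 3-month-old rat. The means were 37677 ± 10360 units (SD, n = 4) and 20158 ± 3844 units (SD, n = 3), a difference that did not pass a two-sided exact permutation test (p = 0.0857), where 4 rats against 3 cannot give a p below 0.0286.

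miR-375 was among the 9 brightest miRNAs on every array. It gave 16555, 14260, 9959 and 16651 units at 12 months and 10282, 9911 and 8325 units at 3 months, in the same order of replicates. Replicate 10 was again the lowest of the older rats and fell inside the range of the younger ones. The means were 14356 ± 3133 units (SD, n = 4) and 9506 ± 1039 units (SD, n = 3; exact permutation p = 0.0857).

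miR-7b was much dimmer, although it shares its seed with miR-7a. Whether its probes also bind miR-7a, which differs from it at 1 of 23 positions, was not tested. The signal of miR-7b was 1994, 1436, 1182 and 2333 units at 12 months and 1030, 1055 and 1120 units at 3 months. All 4 older rats lay above all 3 younger ones, with means of 1736 ± 523 (SD, n = 4) and 1068 ± 46.5 units (SD, n = 3; exact permutation p = 0.0857). These signals had not been scaled between arrays, and the older rats' arrays were brighter as a whole. Other miRNAs, let-7a, miR-29a and miR-126 among them, likewise lay higher in all older rats without scaling. The percentage of all miRNAs tested for which this was so is not given here. The error that the software attaches to a signal was between 6.78% and 9.26% of it for the 3 miRNAs, smaller than the spread between the older rats.

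**Figure D1:**
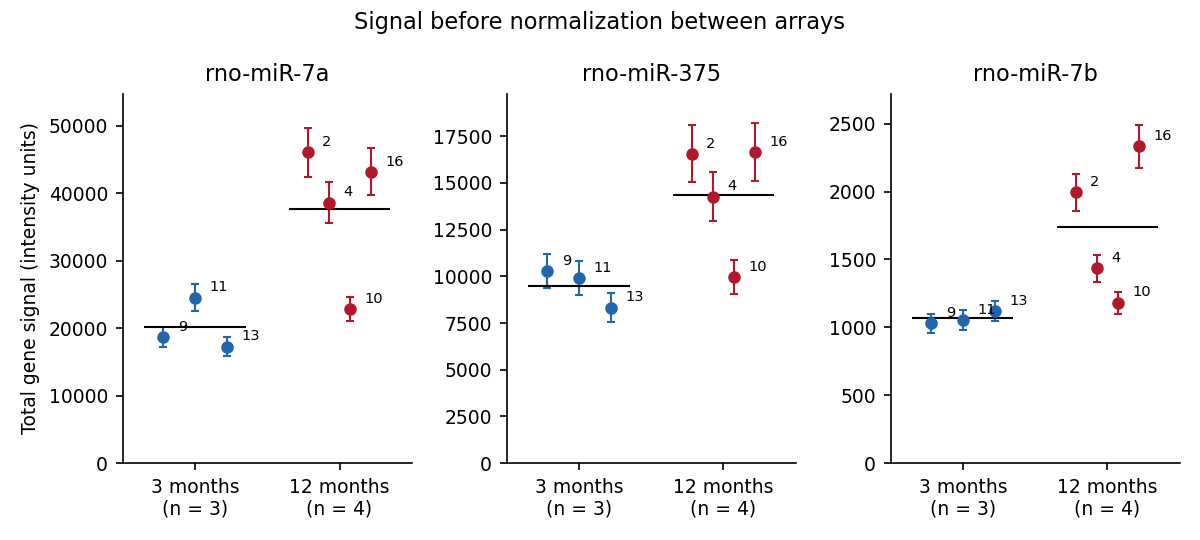
Total gene signal (intensity units, linear axis from 0) of miR-7a, miR-375 and miR-7b on each array, before any scaling between arrays. Points are rats, labelled by replicate, bars are the software's own error and lines are group means; the older rats are the brighter ones on average for each miRNA, and replicate 10 is the lowest older rat in each.

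Setting each signal against all rat miRNAs of the same array removes the brightness of the array. miR-7a held 11.5%, 11.1%, 8.36% and 11.3% of the summed signal at 12 months and 9.91%, 10.2% and 10.2% at 3 months. The younger rats lay close together, whereas 3 older rats were above them and replicate 10 was below them. The mean share was 10.6% ± 1.48 (SD, n = 4) and 10.1% ± 0.145 (SD, n = 3), with an exact permutation p of 0.657. The difference of 0.494 percentage points became 1.23 without replicate 10 (exact permutation p = 0.1, the smallest that 3 rats against 3 allow), and lay between 0.194 and 0.305 without replicate 2, 4 or 16.

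miR-375 held 4.12%, 4.11%, 3.65% and 4.36% of the signal at 12 months and 5.46%, 4.10% and 4.90% at 3 months. Replicates 9 and 13, both 3-month-old rats, were above all older rats, and replicate 11 was within their range. The mean share was 4.06% ± 0.300 (SD, n = 4) at 12 months against 4.82% ± 0.682 (SD, n = 3) at 3 months (exact permutation p = 0.114). The difference of -0.759 percentage points became -0.44 without 3-month-old replicate 9 and -1.12 without 3-month-old replicate 11 (exact permutation p = 0.0667, the smallest that 4 rats against 2 allow), and it was -0.457 when the signal was rebuilt from median spot brightness with normexp background correction.

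miR-7b held 0.496%, 0.414%, 0.433% and 0.611% at 12 months and 0.547%, 0.437% and 0.659% at 3 months. The ages overlapped over most of their range, and the means were 0.489% ± 0.0889 (SD, n = 4) and 0.548% ± 0.111 (SD, n = 3; exact permutation p = 0.429). The difference of -0.059 percentage points was -0.00315 without 3-month-old replicate 13 and -0.0342 without 12-month-old replicate 4, but -0.114 without 3-month-old replicate 11 and -0.0998 without 12-month-old replicate 16. Shares did not overlap between the ages for 0 of the 3 miRNAs, whereas this was so for 20.2% of the 272 miRNAs tested.

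Together the 3 miRNAs made up 15.1% ± 1.81 (SD, n = 4) of the array's signal in the older rats and 15.4% ± 0.661 (SD, n = 3) in the younger rats, a difference of -0.325 percentage points (exact permutation p = 0.943). miR-7a and miR-7b, which share a seed, summed to 11.1% ± 1.52 (SD, n = 4) and 10.6% ± 0.190 (SD, n = 3; exact permutation p = 0.686). In bulk islet RNA, fewer endocrine cells and less of a miRNA per cell cannot be told apart.

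**Figure D2:**
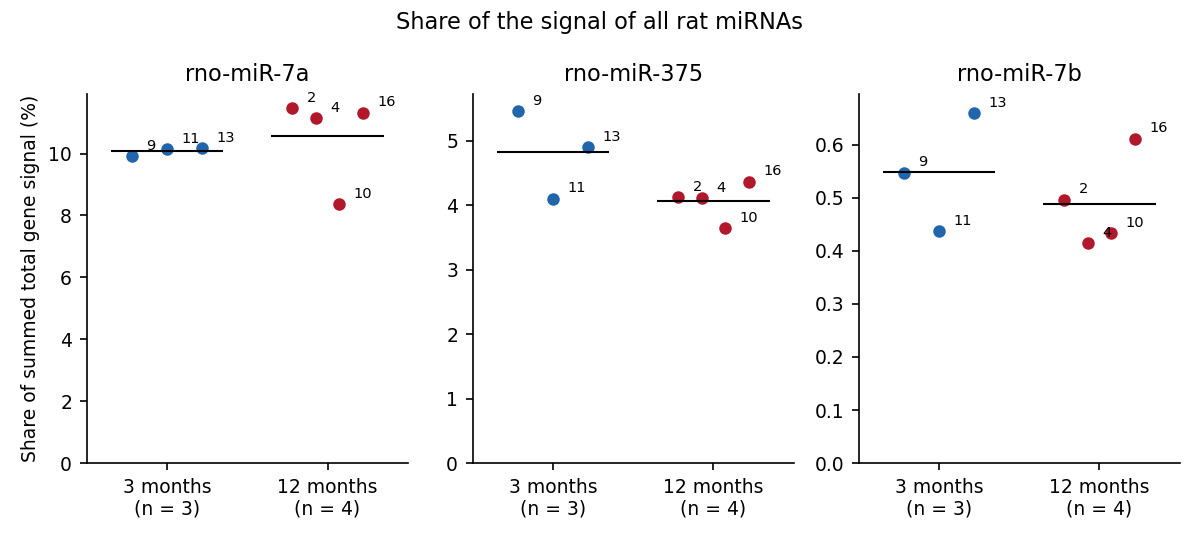
Share of the summed total gene signal of all rat miRNAs (%, linear axis from 0) held by miR-7a, miR-375 and miR-7b on each array. Points are rats, labelled by replicate, and lines are group means; the ages overlap for each miRNA, and 12-month-old replicate 10 stands below the other rats for miR-7a at 8.36%.

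The order of signals was led by miR-7a, which came first on 6 arrays and second on that of 12-month-old replicate 10, where miR-29b was brighter. miR-375 ranked 7, 6, 9 and 6 in the older rats and 3, 7 and 5 in the younger ones. miR-7b ranked 36, 41, 39 and 32 in the older rats and 34, 38 and 28 in the younger ones. The 10 brightest miRNAs, miR-7a, miR-29b, miR-29a, let-7c, miR-375, let-7f, let-7a, miR-23b, miR-29c and let-7b, held between 49.4% and 55.9% of the signal of an array.

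By the mean log2 signal over 7 rats, miR-7a exceeded miR-29b, next in the order, by 0.24 ± 0.22 (SD of the within-array difference, n = 7) and did so on 6 of 7 arrays. miR-375 was number 5 in this order, between let-7c and let-7f. It was 0.10 ± 0.30 below let-7c and 0.03 ± 0.27 above let-7f on the log2 scale (SD, n = 7), and both mean differences were smaller than their spread between rats. let-7c was above miR-375 on 6 of 7 arrays, and miR-375 was above let-7f on 2 of 7. miR-7b came 35th, within 0.01 ± 0.31 of miR-384-5p and 0.03 ± 0.33 of miR-429 (log2, SD, n = 7). Hence miR-7b, unlike miR-7a and miR-375, was not among the dominant signals on any array. No other tissue was part of the comparison, so whether the 3 miRNAs are higher in islets than elsewhere was not tested.

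**Figure D3:**
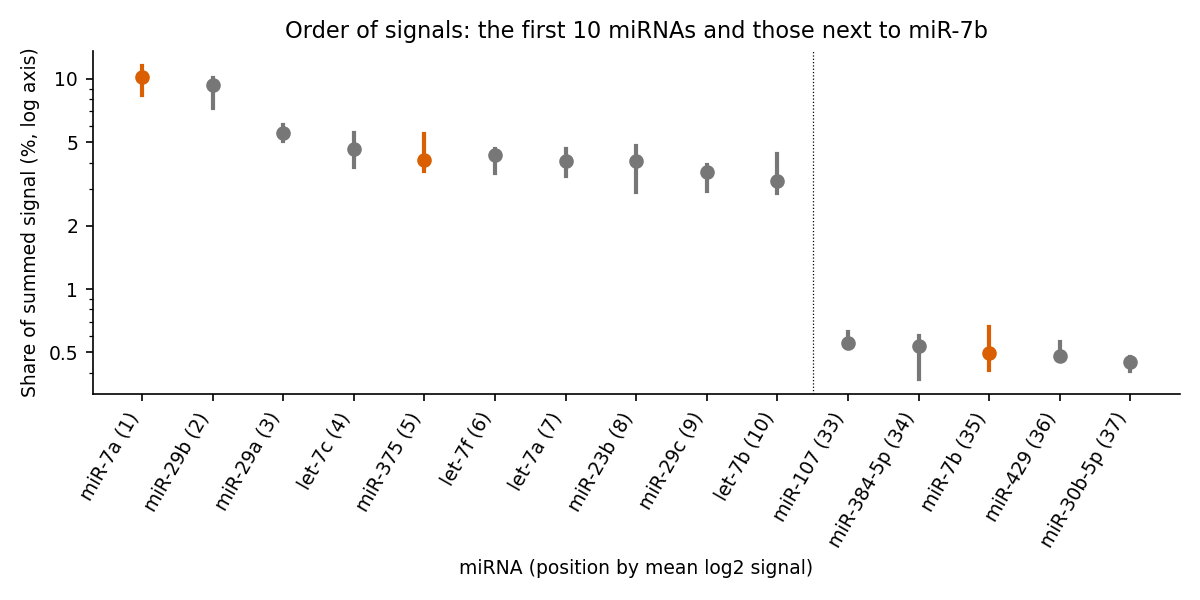
Share of summed signal (%, log axis) of the 10 brightest miRNAs and of the 5 around miR-7b, ordered by mean log2 signal over the 7 arrays, with the position in brackets. Points are medians over 7 arrays, lines run from the lowest to the highest array, and orange marks miR-7a, miR-375 and miR-7b; miR-375 lies among let-7 family members whose ranges overlap its own.

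Ratios of total gene signals within an array are the same whatever single factor the array is scaled by, though not after quantile normalisation. miR-7a was 2.78, 2.71, 2.29 and 2.59 times as bright as miR-375 in the older rats and 1.82, 2.47 and 2.08 times in the younger rats. The log2 ratio averaged 1.37 ± 0.12 (SD, n = 4) in the older and 1.07 ± 0.22 (SD, n = 3) in the younger rats, higher by 0.30 in the older, but replicate 10 lay below replicate 11 and the exact permutation p was 0.0857. Without 3-month-old replicate 9 the difference was 0.19.

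Between the seed-sharing pair, miR-7a was 15.4 to 26.9 times as bright as miR-7b across the 7 rats. The log2 ratio was 4.44 ± 0.25 (SD, n = 4) and 4.22 ± 0.30 (SD, n = 3) at 12 and 3 months, a difference of 0.22 (exact permutation p = 0.371) that was 0.38 without 3-month-old replicate 11, 0.12 without 12-month-old replicate 4 and 0.08 without 3-month-old replicate 13. miR-375 was 7.14 to 9.98 times as bright as miR-7b, and that log2 ratio differed by -0.08 between the ages (exact permutation p = 0.571). Its sign was not stable, at -0.16 without 12-month-old replicate 4, -0.21 without 3-month-old replicate 13, -0.04 without 3-month-old replicate 11, 0.00 without 12-month-old replicate 16 and 0.01 without 3-month-old replicate 9.

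The ratio of miR-7a to miR-29b was added because the pair changed places on 1 array, after the values had been seen. It was 1.13, 1.19, 0.876 and 1.16 at 12 months and 1.28, 1.30 and 1.40 at 3 months, so all older rats lay below all younger ones. The log2 ratio was 0.11 ± 0.21 (SD, n = 4) against 0.40 ± 0.07 (SD, n = 3), lower by 0.29 (exact permutation p = 0.0571), and the difference was -0.19 without replicate 10. miR-29b itself held 10.1%, 9.35%, 9.54% and 9.76% of the signal at 12 months (mean 9.70%). At 3 months it held 7.77%, 7.83% and 7.25% (mean 7.62%). Its shares did not overlap between the ages, as was so for 20.2% of the 272 miRNAs tested. By qPCR the study found no reproducible change of miR-29b. The difference in the ratio of miR-7a to miR-29b did not pass the test, and a ratio does not tell which of the pair differs.

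**Figure D4:**
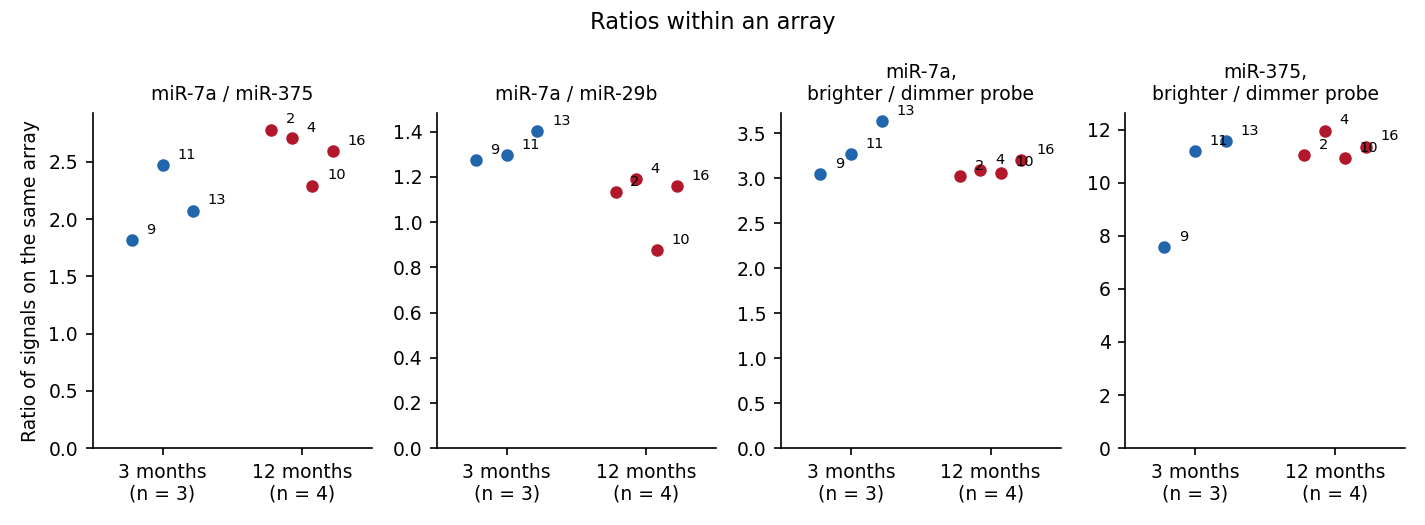
Ratios of signals on the same array (linear axes from 0): miR-7a over miR-375, miR-7a over miR-29b, and the brighter over the dimmer probe of miR-7a and of miR-375. Points are rats, labelled by replicate; the ages are separate for miR-7a over miR-29b, and 3-month-old replicate 9 stands at 7.57 for the probes of miR-375.

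After quantile normalisation, which the study used, 0 of the 3 miRNAs passed the test for a difference between the ages, against 4 of all 272 miRNAs tested (1.47%). The log2 difference, 12 minus 3 months, was -0.07 for miR-7a (SE 0.14, limma adjusted p = 0.897), -0.20 for miR-375 (SE 0.16, limma adjusted p = 0.552) and -0.27 for miR-7b (SE 0.23, limma adjusted p = 0.574). Quantile normalisation, run here over the 677 rat miRNAs, gives the brightest of them one and the same value on every array. miR-7a thus stood at 14.81 on 6 arrays and at 14.51 on that of replicate 10, so its difference holds only that exchange of ranks.

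Scaling each array to the 75th percentile of the miRNAs detected on all arrays leaves the distances between bright miRNAs as measured. On that scale miR-7a was at 6.0, 5.81, 5.32 and 5.96 in the older rats and at 5.57, 5.74 and 5.56 in the younger rats (log2 above the percentile). The difference was 0.15 (SE 0.20, limma adjusted p = 0.814), with an unadjusted 95% interval of -0.31 to 0.60. Leaving out each rat in turn gave 0.07, without replicate 2, to 0.29, without replicate 10.

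On the same scale miR-375 was at 4.52, 4.37, 4.12 and 4.58 in the older rats and 4.71, 4.43 and 4.51 in the younger rats, and differed by -0.15 (SE 0.17, 95% interval -0.54 to 0.24, limma adjusted p = 0.767). With 1 rat left out that difference ran from -0.21 to -0.07, the smallest being without 12-month-old replicate 10 or 3-month-old replicate 9. miR-7b was at 1.47, 1.06, 1.05 and 1.75 against 1.39, 1.20 and 1.61, and differed by -0.07 (SE 0.22, 95% interval -0.57 to 0.43, limma adjusted p = 0.911). It ran from -0.21 without 12-month-old replicate 16 to 0.07 without 3-month-old replicate 13, and was also above 0 without 12-month-old replicate 4 or 10. With this scaling 7.72% of the 272 miRNAs passed, and 0 of the 3 described here. A p above the threshold does not show that the ages were alike, since these intervals hold log2 differences of up to 0.60 in miR-7a and down to -0.54 in miR-375.

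Without scaling, the median log2 difference over the 272 miRNAs was 0.79, higher at 12 months, and 62.9% passed the test. miR-7a was then higher by 0.87 (SE 0.30, limma adjusted p = 0.0300), 0.08 above that median. The differences of miR-375, 0.57 (limma adjusted p = 0.0744), and miR-7b, 0.65 (limma adjusted p = 0.0595), were below it. Ordered from the largest rise, miR-7a was number 101, miR-7b number 192 and miR-375 number 206 of 272.

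**Figure D5:**
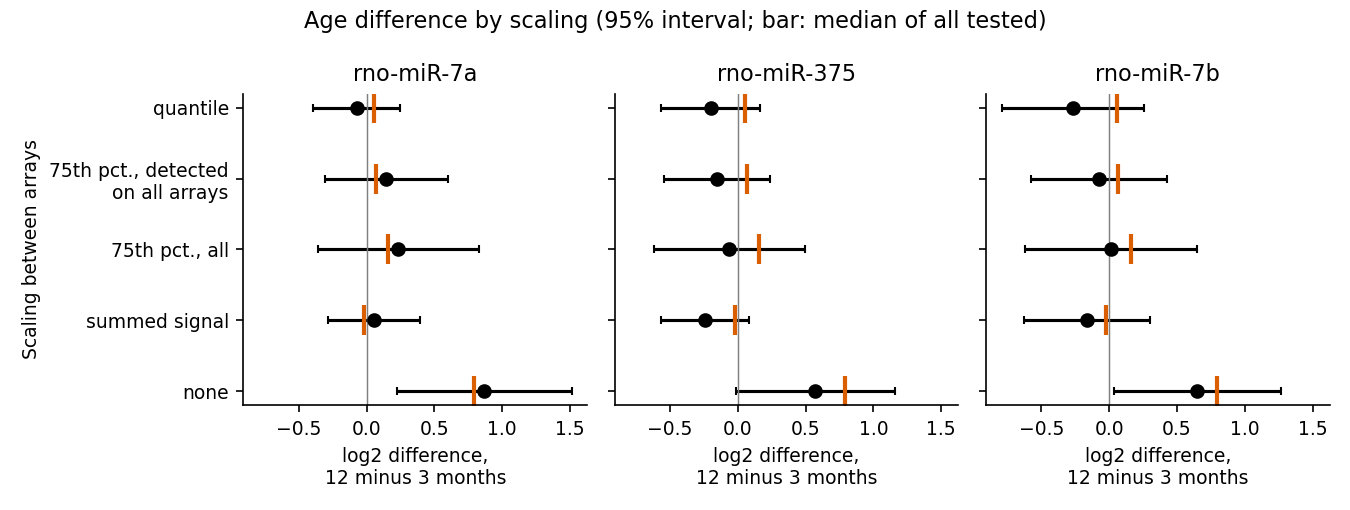
log2 difference between the ages (12 minus 3 months) of miR-7a, miR-375 and miR-7b under 5 scalings between arrays, from quantile normalisation to none. Points are limma estimates with unadjusted 95% intervals and orange bars are the median over the 272 miRNAs tested; each interval holds 0 except those of miR-7a and miR-7b without scaling, where the median itself is at 0.79.

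The probes behind these values were read separately. miR-7a and miR-375 were each read by 2 probes with 10 spots, and miR-7b by 4 probes with 5 spots. The brighter probe gave 75.2% to 78.4% of the total of miR-7a and 88.3% to 92.3% of that of miR-375. For miR-7b the 4 probes gave 54.8% to 57.1%, 38.4% to 40.5%, 4.53% to 5.95% and 0.0179% to 0.0978%, so the last contributed next to nothing.

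Replicate spots of one probe scattered little, with a median CV between 2.08% and 4.49% for the 7 brighter probes. Spots that the software flagged as uneven or as outliers had been left out first, which lowers this scatter. On the array of 12-month-old replicate 10, 6 of 10 spots were used for the brighter probe of miR-375. For the dimmer probe of miR-7a on that array, 7 of 10 were used. The probes of miR-375 stood in a ratio of 10.9 to 12.0 on 6 arrays and of 7.57 on that of 3-month-old replicate 9, the array on which miR-375 had its highest share. For miR-7a the ratio was 3.03 to 3.27 on 6 arrays and 3.64 on that of 3-month-old replicate 13. The reason for these shifts was not tested.

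Tested as single probes, 0 of the 8 probes of the 3 miRNAs passed, against 13.6% of all 625 probes tested. The probes of miR-7a differed by 0.04 and 0.14 (log2, 12 minus 3 months), the brighter one first, those of miR-375 by -0.22 and -0.40, and the 3 brighter ones of miR-7b by -0.13, -0.18 and -0.19. Probes of one miRNA thus had the same sign on this scale, with limma adjusted p values from 0.330 to 0.969 over these 7 probes. The sign of the brighter miR-7a probe, at 0.04 (SE 0.18), depends on the scale chosen.

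The opposite strands were far dimmer. miR-375* was not detected on any array. miR-7a-1* gave 32.8 to 79.2 units and miR-7a-2* 70.9 to 225 units, and both were detected on all 7 arrays. miR-7a was 463 to 628 times as bright as miR-7a-1* and 205 to 266 times as bright as miR-7a-2*. Neither ratio passed a test between the ages (log2 differences of 0.04 and -0.04, exact permutation p = 0.743 and p = 0.714).

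The miRNAs whose pattern over the 7 rats was most like that of each member were found by Pearson's r of log2 signal, on the scale of the 75th percentile, among the other 237 miRNAs detected on all arrays. These are descriptions over 7 arrays that share a scaling. For miR-7a they were miR-421* (r = 0.99), miR-7a-2* (r = 0.98) and miR-335 (r = 0.98), and r stayed between 0.96 and 0.98 when the 2 rats farthest from the median of miR-7a were left out. The opposite strand of the hairpin on chromosome 1 was thus second in likeness, while that of the hairpin within Hnrnpk, miR-7a-1*, was number 58 with r = 0.72.

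For miR-375 the closest were miR-324-3p (r = 0.89), miR-141 (r = 0.88) and miR-99b (r = 0.87), which fell to 0.66, 0.42 and 0.34 over 5 rats and so rested on the 2 rats left out. For miR-7b they were miR-137 (r = 0.92), miR-340-3p (r = 0.81) and miR-362* (r = 0.81), with 0.87, 0.60 and 0.76 over 5 rats. Between the members r was 0.70 for miR-375 with miR-7b, 0.48 for miR-7a with miR-375 and 0.44 for miR-7a with miR-7b, so the seed-sharing pair was not the most alike. Among the older rats the SD of miR-7a was 0.31 and that of miR-7b 0.34 (log2), above the median SD of 0.23 over 238 miRNAs, and miR-375 was below it at 0.21. Among the younger rats the SD of miR-7a was 0.10, of miR-375 0.14 and of miR-7b 0.21, all below the median of 0.24.

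The tissue label was checked against markers of the cell types an islet preparation can hold. Of 17 endocrine miRNAs, 15 were detected on all arrays, the miR-200 family members, miR-183, miR-96 and miR-127 among them, and miR-184 and miR-9 on none. Of all 677 rat miRNAs, 238 were detected on all arrays. The endocrine list, the 3 members included, summed to 20.4% to 24.2% of the signal at 12 months and 23.4% to 25.9% at 3 months. Most of this sum came from the 3 members themselves, which held 12.4% to 16.3% and 14.7% to 15.9%. The sum is thus no separate check on them, and the list without them was not compared between the ages. The median log2 difference of the whole list was -0.08 against 0.06 over all 272 miRNAs. After quantile normalisation 0 of its 15 tested entries passed.

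The acinar list (miR-216a, miR-216b and miR-217, markers of exocrine cells), with 3 of 4 entries detected on all arrays, summed to 0.0370% to 0.533% at 12 months and 0.456% to 1.02% at 3 months. The highest older rat was replicate 10, the rat with the lowest share of miR-7a, and the other older rats had 0.0370% to 0.245%. The highest rat of all was 3-month-old replicate 13, at 1.02%, with a miR-7a share of 10.2%. Replicates 9 and 11, at 0.472% and 0.456%, had miR-7a shares of 9.91% and 10.2%. The mesenchymal list (miR-143, miR-145, miR-199a and miR-214), with 4 of 5 entries detected on all arrays, summed to 0.655% to 1.05% and 0.434% to 0.708%, with 1.03% in replicate 10. The leukocyte list held at most 0.160%, the erythroid list at most 0.119% and the endothelial miR-126 0.550% to 0.791% of the signal of any array. After quantile normalisation the median log2 difference (12 minus 3 months) was -2.11 for the acinar list, 1.16 for the mesenchymal list, 0.91 for the leukocyte list, -0.52 for the erythroid list and 0.07 for miR-126. On the scale of the 75th percentile, miR-199a-3p, miR-199a-5p and miR-214 were higher in all older than in all younger rats. The ages overlapped for miR-143, the brightest mesenchymal entry, and for miR-145, and 0 of the 5 mesenchymal entries passed the test on that scale. Separation of the ages was not rare, since shares of summed signal did not overlap for 20.2% of all miRNAs tested. That percentage is not given here for the scale of the 75th percentile. After quantile normalisation 0 of the tested markers of these lists passed, and the part of other cells in the shares of miR-7a, miR-375 and miR-7b was not tested.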

How the data were processed

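Islet RNA of 7 rats was measured on single-colour Agilent miRNA arrays of 1 slide, with 1 array per rat. The authors extracted intensities on a linear scale with Agilent Feature Extraction (version 10.7.3.1, from the submitters' processing notes), which subtracts background and sums probes to a total gene signal. They also deposited a matrix of log2 values of 307 miRNAs, quantile normalised by the authors, with a median of 6.44 in each column. Its ranks followed the scanner values (Spearman's rho at least 0.9999 across miRNAs). Its highest values were not the same on every array. Where miR-7a ranked first, it stood at 15.03 in 12-month-old replicates 2, 4 and 16. In 3-month-old replicates 9, 11 and 13 it stood at 14.81, 14.93 and 14.58, and the reason was not tested. Its offset is not given in the sources used here.

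The intensities were floored at 1 and put on a log2 scale before quantile normalisation over the 677 rat miRNAs. Testing covered the 272 miRNAs that all arrays of either age detected, with limma (version 3.58.1, R version 4.3.3; lmFit, eBayes, Benjamini-Hochberg over all 272, threshold 0.05). Shares and ratios were compared with two-sided exact permutation tests over 35 splits of the rats, and those p-values were not adjusted for the number of comparisons. All p-values treat rats as replicates, grouped by the age in their labels. The fits were tested on simulated data. Precision is limited by the number of arrays.

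The members, marker lists and comparisons were chosen with earlier results of these data known. Other miRNAs named are the 10 brightest, those next to miR-7b in the order of signals, the 3 most like each member, the opposite strands and markers. The 2 ages share no replicate numbers. Mature sequences were matched by name to RefSeq (GRCr8), all 3 found, and no coordinates of the array's older assembly were used. Alternatives were other scalings, filters, floors, background corrections and variance models, the methods' t-test, leaving out each rat, the deposited matrix, and a block for the slide row.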

Additional observations from a re-analysis of the deposited data

Results flagged for a closer look

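Several values of miR-7a in 12-month-old replicate 10 stood apart from those of the other 3 older rats, as measured by the distance to the closest other rat as a fraction of the group's range. This quotient was 0.893 for the share of miR-7a in the summed signal, 0.869 for the share of miR-7a and miR-7b together, 0.838 for the share of the 3 miRNAs together and 0.834 for the log2 ratio of miR-7a to miR-29b. It was 1 for miR-7a after quantile normalisation and 1 in the deposited matrix, and in both the other 3 older rats had one common value. In all, 6 of 28 measures were singled out in this way. Chance alone singles out about 1 in 20 measures that are independent, free of ties and chosen beforehand. That rate does not apply here, since the 6 share the signal of miR-7a on 1 array and are not independent. The ratio to miR-29b was added because the pair changed places on that array. Where 3 rats have one common value, any other value of the 4th gives a quotient of 1. The array of replicate 10 had the lowest summed signal of the older rats, 273161 units, and their highest acinar marker share, 0.533%. A higher acinar share, 1.02%, was seen in 3-month-old replicate 13, whose miR-7a share was 10.2%. The part of summed signal or acinar share in these values was not tested.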

How the results depend on the processing

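No paired analysis was possible because the ages share no replicate numbers. The sign of the miR-7a age difference changed from -0.07 to 0.15 with the 75th percentile of detected miRNAs, 0.24 with that of all miRNAs, 0.06 with the summed signal, 0.87 with no scaling and 0.14 in the deposited matrix, and ran from -0.10 to 0.00 with 1 rat left out. Only without scaling did it pass the test. For miR-375 it changed from -0.20 to 0.57 without scaling, and for miR-7b from -0.27 to 0.02 with the percentile of all miRNAs, 0.65 without scaling and 0.07 with array weights; neither passed under any of 21 alternatives (limma adjusted p from 0.0744 to 0.91 and from 0.0595 to 0.97; the methods' t-test included). With 1 rat left out, these ran from -0.30 to -0.06 and from -0.42 to -0.04. The ratio of miR-375 to miR-7b was 0.07 in the matrix and -0.21 to 0.01 with 1 rat left out. The ratio of miR-7a to miR-29b, added after the values had been seen, reached -0.51 in the matrix. Its exact permutation p of 0.0286 there is the smallest that 4 rats against 3 allow. In the matrix miR-7a stood at 15.03 and miR-29b at 14.81 in each of 12-month-old replicates 2, 4 and 16. Ratios there follow the quantile normalisation and are not those of the measured signals. Of 272 miRNAs 4 passed; the count was 21, 10, 19 and 171 with those 4 scalings in turn, 8 in the matrix, 1 among miRNAs detected on all 7 arrays, 48 with array weights, and 4 to 10 with 1 rat left out (10 without 12-month-old replicate 10). The methods' t-test gave 49 at its unadjusted threshold and 3 after adjustment. The cause of these shifts was not tested. The shares and the other ratios kept their sign under every alternative run, and none passed. With 1 rat left out or within slide rows, no exact permutation test could have passed. The smallest p these allow is 0.1 for 3 rats against 3, 0.0667 for 4 against 2 and 0.0556 within rows. Those runs thus bear only on the size and sign of a difference.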
